A study of Mus musculus with 34 samples.

Results

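A set of 8 long noncoding RNAs that are known to be abundant in many mammalian cells, *Malat1*, *Neat1*, *Tug1*, *Norad*, *Gas5*, *Snhg1*, *Snhg5* and *Snhg12*, were followed by name through the gene counts of mouse hematopoietic stem cells (HSCs). All 8 were found among the 13108 gene rows, 7 under these names and *Norad* under its older name 2900097C17Rik. They were taken by name, with no threshold on a value. HSCs (LSK CD48-CD150+) were sorted in samples of 100 cells from *Ythdf2* fl/fl;Vav-iCre mice (Ythdf2CKO, labelled KO), in which Cre driven by Vav acts in hematopoietic cells, and from *Ythdf2* fl/fl mice without Cre (Ythdf2CTL, labelled WT), on the C57BL/6 background. Both genotypes carry the floxed allele, in which loxP sites flank exon 2 and GFP is fused to YTHDF2. Young mice, 4 of each genotype, were 8 to 12 wk old, and aged mice, 4 Ythdf2CTL and 5 Ythdf2CKO, were labelled 1 yr. Every mouse gave a library A and a library B, and 33 libraries of 17 mice were used. The cells of a library were pooled, so that fewer cells of a type and less RNA per cell cannot be told apart. The library codes of the young mice differ from those of the aged mice, so that age and library preparation cannot be told apart either.

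YTHDF2 binds mRNAs and noncoding RNAs that carry N6-methyladenosine (m6A) and brings them to deadenylation and decay. Long noncoding RNAs act without being translated into a known protein, and those studied here fall into several classes. *Malat1* lies in nuclear speckles, where splicing factors are stored, *Neat1* is the scaffold of paraspeckles, *Norad* binds Pumilio proteins in the cytoplasm, and *Tug1* is found in nucleus and cytoplasm and was first described in the retina. *Gas5*, *Snhg1*, *Snhg5* and *Snhg12* are hosts of small nucleolar RNAs (snoRNAs), which are cut from their introns and guide the modification of ribosomal RNA, while their spliced RNAs are known as substrates of nonsense-mediated decay. The annotated exons of all 4 hosts, taken over every transcript, include the sequence of snoRNAs, and those of *Snhg1* and *Snhg12* cover the whole gene, so that counts per gene need not come from spliced RNA alone.

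The sequences show what kinds of RNA these are and some features that bear on capture by oligo(dT) priming, which SMART-Seq2 uses. Positions are from GENCODE vM21 on GRCm38, the build to which the reads were aligned. *Malat1* is a single-exon RNA of 6983 nt (chr19:5795690-5802672, minus strand), and *Neat1* (chr19:5824708-5845478, minus strand) lies 22036 bp away with a longest annotated transcript of 20771 nt. The mature 3′ end of *Malat1* is known to form a triple helix in place of a poly(A) tail and is cut from a small tRNA-like RNA. The bases around that end, 6644 to 6715 of the transcript, are shown because they hold its longest run of A (12 bases, in capitals), which starts at base 6674 and leaves 298 bases to the annotated end.
*Malat1*: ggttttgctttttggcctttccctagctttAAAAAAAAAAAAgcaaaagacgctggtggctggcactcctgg
A run of 10 or more A is present in the longest transcript of 8.65% of 10130 long noncoding genes and 15.8% of 21922 protein-coding genes. The hexamer AATAAA, the usual polyadenylation signal, was searched on the sense strand in the last 50 bases of each longest transcript. It is present there in *Malat1*, *Tug1*, *Snhg1*, *Snhg12* and *Norad*, against 32.4% of long noncoding and 56.4% of protein-coding transcripts. It was not found in *Neat1*, *Gas5* or *Snhg5*. Other hexamers and the ends of shorter transcripts were not searched (*Gas5* has 25 annotated transcripts and *Neat1* 4). Its absence therefore does not say that an RNA lacks a polyadenylation signal. For *Tug1* (chr11:3639785-3649673, minus strand) and *Norad* (chr2:156388065-156392979, minus strand) these last 50 bases are shown with the hexamer in capitals.
*Tug1*: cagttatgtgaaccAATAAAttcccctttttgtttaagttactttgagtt
*Norad*: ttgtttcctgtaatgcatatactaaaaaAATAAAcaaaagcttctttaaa

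*Norad* stands out for the sequence that Pumilio proteins bind. Its single-exon transcript of 4915 nt has 11 matches to TGTANATA on the sense strand, or 2.24 per kb, whereas long noncoding transcripts hold 0.113 per kb when pooled. It ranked 7 by this count among the longest transcripts of all annotated genes. Bases 1518 to 1667 are shown because they hold 2 of these matches, in capitals.
*Norad*: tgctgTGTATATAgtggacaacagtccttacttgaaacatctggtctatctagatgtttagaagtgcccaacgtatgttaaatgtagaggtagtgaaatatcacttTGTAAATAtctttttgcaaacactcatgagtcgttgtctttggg
The core GGACT of the m6A consensus was also counted on the sense strand. *Neat1* has 23 matches, *Malat1* and *Tug1* 9 each, *Gas5* 3 and *Snhg1* 1, and *Snhg5*, *Snhg12* and *Norad* have 0. Per kb, *Tug1* (1.34), *Malat1* (1.29) and *Neat1* (1.11) lie near the 1.12 of long noncoding transcripts as a whole, and a match does not say that the site is methylated.

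**Figure D1:**
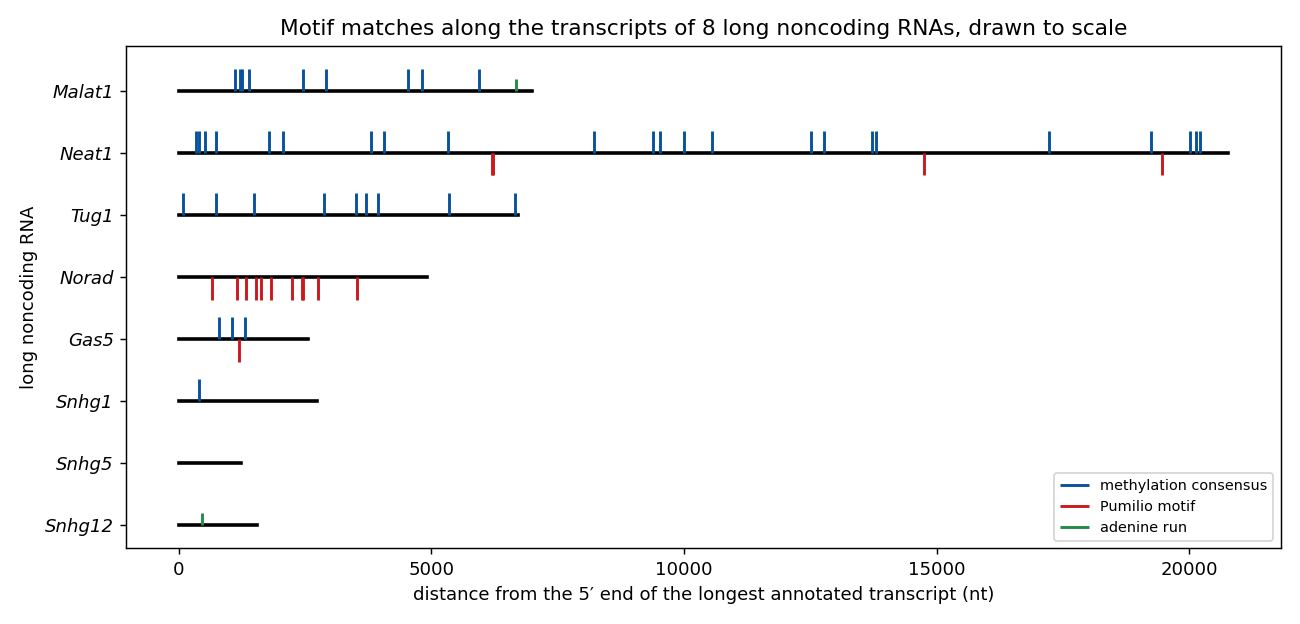
Longest annotated transcript of each of 8 long noncoding RNAs, drawn to scale in nt from the 5′ end, with matches to the core of the m6A consensus (GGACT, blue, upward), to the Pumilio motif (TGTANATA, red, downward) and runs of 10 or more A (green, short). All 11 matches in *Norad* are Pumilio motifs, and *Neat1*, *Malat1* and *Tug1* hold 23, 9 and 9 matches to the m6A core.

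The snoRNA hosts are known to start with a pyrimidine tract, the feature of terminal oligopyrimidine (TOP) RNAs that ties translation to growth signals. Their start windows, 30 bases before to 30 bases from the RefSeq start (GRCm38.p6), are shown with the longest C and T run in capitals. RefSeq entries were found for 6 of the 8 members. The run was sought anywhere in the window, so that its length does not measure a tract at the start itself. Counted from the RefSeq start, it begins at -3 in *Snhg12*, -1 in *Gas5* (window shown), 4 in *Snhg1* and 7 in *Snhg5*.
*Gas5*, chr1:161035136-161035195, plus strand: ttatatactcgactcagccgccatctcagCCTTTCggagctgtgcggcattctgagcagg
*Snhg1*, chr19:8723457-8723516, plus strand: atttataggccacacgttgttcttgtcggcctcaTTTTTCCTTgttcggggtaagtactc
*Snhg5*, chr9:88522868-88522927, minus strand: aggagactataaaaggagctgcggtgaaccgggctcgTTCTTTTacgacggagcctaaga
*Snhg12*, chr4:132308648-132308707, plus strand: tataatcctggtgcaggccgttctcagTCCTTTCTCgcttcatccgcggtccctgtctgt
The run is 9 bases in *Snhg1* and *Snhg12*, a length reached in 15.6% of 32851 promoter windows, 7 in *Snhg5* (33.8%) and 6 in *Gas5* (49.6%), against 5 in *Tug1* (70.9%) and 4 in *Malat1* (88.4%). RefSeq gives *Gas5* another start, at chr1:161034571-161034630, where the longest run is 3 bases (97.8%), and the window shown holds 14 GENCODE starts against 1 in that one. GENCODE places 10 snoRNA genes within *Gas5* (chr1:161034422-161038539), 8 within *Snhg1* (chr19:8723475-8726443), 5 within *Snhg12* (chr4:132308623-132311024) and 2 within *Snhg5* (chr9:88521050-88522929). *Snhg12* lies 96320 bp from *Ythdf2* itself (chr4:132184912-132212303). *Tug1* shares 483 exonic bases with *Morc2a* on the opposite strand, and *Malat1* shares 453 with Gm37376. Since these libraries do not mark strand, reads from either stretch cannot be told apart.

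Totals per library ranged from 1859784 to 7784627, and library B of aged Ythdf2CTL 99, with 187034 counts, was left out. A floor of 3 counts in a library corresponds to 0.385 to 1.61 CPM (reads of a gene relative to the scaled library total), and every member was above this in every library. *Ythdf2* was lower in the young Ythdf2CKO mice (50.3 to 60.3 CPM) than in the young Ythdf2CTL mice (93.4 to 123 CPM), but in the library pairs labelled aged Ythdf2CKO 121 (188 CPM) and aged Ythdf2CTL 124 (70.5 CPM) it went against the label. The genotype differences in aged mice are therefore also given without those 2 mice. All 14 HSC markers examined were detected in every mouse except *Fgfr3*, which was at 0 in 1 aged Ythdf2CKO mouse. Their summed level was 1859 to 2270 CPM in young Ythdf2CTL and 2320 to 3048 CPM in young Ythdf2CKO mice. In aged mice it was 1684 to 3438 and 2664 to 3428 CPM. Among them *Ly6a* was at 254 to 340 CPM in young Ythdf2CTL and 417 to 907 CPM in young Ythdf2CKO mice. Of the 4 B cell markers with a row, *Ms4a1* was at 0 in all 4 groups and *Cd79a* at 0 in young mice, while the other 2 were detected in every young mouse, and the summed level of the 4 was 81.1 to 154 CPM in young and 32.5 to 104 CPM in aged mice. Neutrophil and monocyte markers (9 with a row) summed to 927 to 1259 CPM in young and 587 to 1312 CPM in aged mice, and the 2 T and NK cell markers with a row to 352 to 533 and 158 to 355 CPM. The summed level of 8 megakaryocyte and platelet markers was 786 to 1141 CPM in young Ythdf2CTL and 1243 to 3382 CPM in young Ythdf2CKO mice, and 473 to 1234 and 513 to 2631 CPM in aged mice. Y-linked genes summed to over 10 CPM in 3 of 4 young Ythdf2CTL, 1 of 4 young Ythdf2CKO, 1 of 4 aged Ythdf2CTL and 1 of 5 aged Ythdf2CKO mice.

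Differing by orders of magnitude, the members ran from *Malat1*, which took up 0.384% to 1.31% of a mouse's counts and ranked first among all genes in 9 of 17 mice, to *Snhg12*. Compared per length, as CPM per kb of annotated exons in young Ythdf2CTL mice (mean ± SD, n = 4), *Malat1* stood at 1174 ± 88.1, *Gas5* at 343 ± 14.6 and *Snhg5* at 73.3 ± 15.1. *Snhg1* (18.0 ± 2.51) and *Tug1* (17.0 ± 2.05) did not differ beyond their spread, nor did *Snhg12* (6.77 ± 2.11) and *Norad* (5.59 ± 0.80), and *Neat1* was lowest at 2.52 ± 1.09. These values divide by every annotated exon, so that a long form that is little captured would lower a level per kb, and *Neat1* has the longest annotated form.

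**Figure D2:**
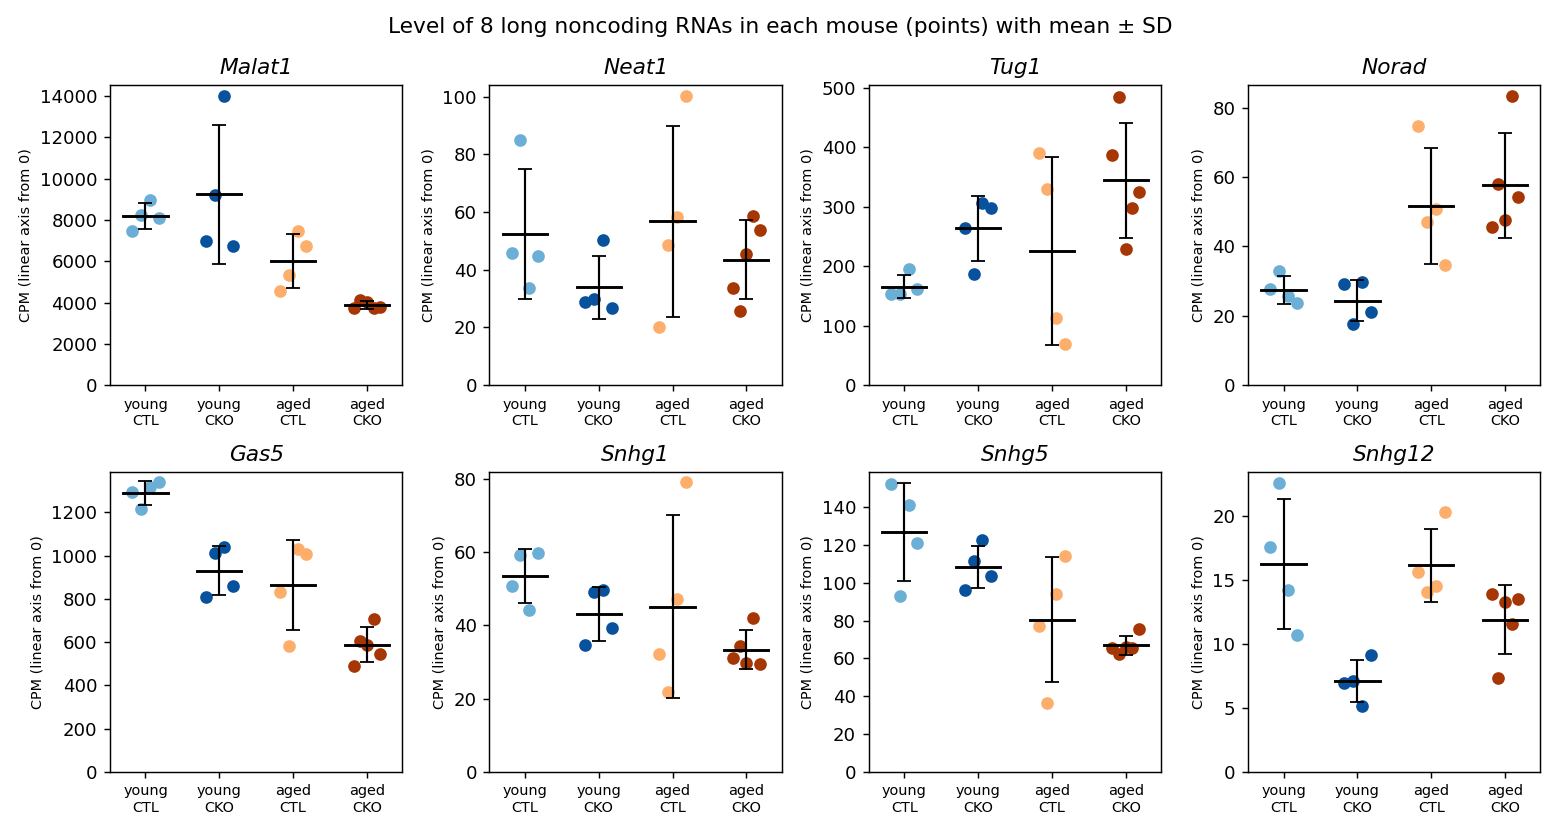
Level of each long noncoding RNA in CPM (linear axis from 0) in every mouse (points) of the 4 groups, with the mean (line) and SD (bar). *Gas5* in young mice and *Malat1* in aged mice are without overlap between the genotypes, and *Norad* in aged mice is above all young mice.

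The first question was whether loss of YTHDF2 changed these RNAs in young HSCs. None of the 8 members passed the edgeR quasi-likelihood test (adjusted p below 0.05) in young mice, where 0.174% of 11526 genes did. Without adjustment 3 members had a p under 0.05, *Gas5* and *Snhg12* with lower and *Tug1* with higher values in Ythdf2CKO, against 7.06% of all genes in either direction. DESeq2 called 2 members, *Gas5* and *Tug1*, and 77 of 11526 genes. Of the 8 members, 6 had a negative log2 fold change, with a median of -0.26, against -0.00093 over all genes tested.

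*Gas5*, which binds the glucocorticoid receptor besides hosting snoRNAs, was at 1293, 1213, 1315 and 1340 CPM in young Ythdf2CTL mice 1 to 4 and at 810, 1013, 1040 and 858 CPM in young Ythdf2CKO mice 1 to 4. The genotypes did not overlap, and the 8 Ythdf2CKO libraries (804 to 1058 CPM) also lay below the 8 Ythdf2CTL libraries (1066 to 1572 CPM). The log2 fold change was -0.47 ± 0.12 (SE), with an adjusted p of 0.222 by the edgeR quasi-likelihood test and of 0.0349 by DESeq2. The adjusted p was 0.0295 by limma voom over libraries with mouse as a random effect. It was 0.00553 by the likelihood ratio test over libraries, which counts both libraries of a mouse as replicates. Over the range of alternatives the log2 fold change lay between -0.55 and -0.41 with adjusted p from 0.00553 to 0.964. The likelihood ratio test over mice gave 0.137, so that between both likelihood ratio tests the call changed with counting libraries in place of mice. The two-sided exact permutation test over mice gave 0.0286, the smallest p that 4 against 4 mice allow.

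*Snhg12* was at 17.6, 22.6, 14.2 and 10.7 CPM in young Ythdf2CTL and at 6.92, 7.13, 5.16 and 9.17 CPM in young Ythdf2CKO mice 1 to 4. Here too the genotypes did not overlap by mouse, although libraries did, since library B of Ythdf2CTL 4 (6.98 CPM, 19 counts) lay below library B of Ythdf2CKO 4 (13.4 CPM, 37 counts). The log2 fold change was -1.19 ± 0.39, the largest in size among the members, with an edgeR adjusted p of 0.447. With only 27 to 61 counts per Ythdf2CKO mouse, this was the most thinly counted member. *Gas5* and *Snhg12* were the members whose genotypes did not overlap in young mice, a pattern seen in 4.77% of all genes tested.

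*Tug1* is drawn by the study as higher in Ythdf2CKO from these same young libraries, so that its values here are no independent evidence. It was at 153, 153, 195 and 161 CPM in young Ythdf2CTL mice 1 to 4 and at 264, 186, 305 and 297 CPM in young Ythdf2CKO mice 1 to 4. Ythdf2CKO 2 lay below Ythdf2CTL 3, and the other 3 Ythdf2CKO mice lay above every Ythdf2CTL mouse. The log2 fold change was 0.67 ± 0.17, with an adjusted p of 0.213 by the edgeR quasi-likelihood test and 0.0296 by DESeq2. The likelihood ratio test gave 0.0517 over mice and 0.0508 over libraries. Across alternatives it lay between 0.60 and 0.81 with adjusted p from 0.0296 to 0.998, and the two-sided exact permutation test gave 0.0571. In Ythdf2CKO 3 the libraries of the pair differed, with 199 CPM in A and 521 CPM in B.

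The other 5 members had an edgeR adjusted p of 0.713 or above in young mice. *Malat1* had 7483 to 8978 CPM in Ythdf2CTL and 6746 to 14029 CPM in Ythdf2CKO mice, with a log2 fold change of 0.18 ± 0.18. Its direction rested on Ythdf2CKO 3, without which it was -0.097. *Neat1* (-0.62 ± 0.30), *Snhg1* (-0.31 ± 0.21), *Snhg5* (-0.22 ± 0.17) and *Norad* (-0.17 ± 0.27) each overlapped between genotypes. For *Neat1* the value was -0.28 without Ythdf2CTL 2, -0.35 in libraries A alone and -1.20 in libraries B alone. *Neat1* was at 33.5 to 85.1 CPM in Ythdf2CTL and at 26.7 to 50.1 CPM in Ythdf2CKO mice. *Snhg1* lay at 44.1 to 59.7 and 34.6 to 49.5 CPM, *Snhg5* at 92.9 to 152 and 96.3 to 122 CPM, and *Norad* at 23.7 to 32.9 and 17.5 to 29.7 CPM. The summed HSC markers, the summed megakaryocyte and platelet markers and the share of mice with Y-linked genes above 10 CPM differed between these groups. The part of the markers in these results was not tested. With the Y-linked level as a covariate, the log2 fold change was -0.55 for *Gas5*, -0.98 for *Snhg12* and 0.69 for *Tug1*, with none called.

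The same comparison was made in aged mice. No member passed the edgeR quasi-likelihood test there, as no gene did (0.0% of 11961). Without Ythdf2CKO 121 and Ythdf2CTL 124, 40 of 12005 genes passed (25 higher and 15 lower), and without Ythdf2CKO 121 alone 16, again with no member among them. Without adjustment p was under 0.05 for 2 members, *Malat1* and *Gas5*, both lower in Ythdf2CKO, and for 10.1% of all genes. DESeq2 called *Malat1* (adjusted p 0.0190) and 104 of 11961 genes. The likelihood ratio test over libraries, which counts both libraries of a mouse as replicates, called *Malat1* (0.00315) and *Gas5* (0.00534) and 420 of 11261 genes, whereas over mice it called neither (adjusted p 0.0891 and 0.233). The sign was negative in 6 of 8 members, with a median log2 fold change of -0.40 against -0.0033 over all genes. A negative sign was also seen in 16 of 20 other long noncoding RNAs in aged mice (median -0.29). In young mice it was seen in 10 of 18 of them (median -0.14), and none was called in either age.

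*Malat1* was at 4575, 5316, 7449 and 6729 CPM in aged Ythdf2CTL mice 65, 99, 114 and 124, and at 3738, 4141, 4049, 3751 and 3773 CPM in aged Ythdf2CKO mice 78, 81, 94, 121 and 122. All Ythdf2CKO mice lay below all Ythdf2CTL mice and close to each other, and 9 of their 10 libraries lay below the lowest of 7 Ythdf2CTL libraries (4480 CPM). The log2 fold change was -0.62 ± 0.15 (edgeR adjusted p 0.297, range over alternatives 0.00315 to 0.653), and the two-sided exact permutation test gave 0.0159, the smallest p that 4 against 5 mice allow. Without Ythdf2CKO 121 and Ythdf2CTL 124 it was -0.56, with an adjusted p of 0.190. The change differed from that in young mice by -0.80 ± 0.26, with an unadjusted p of 0.0050 and an edgeR adjusted p of 0.942.

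*Gas5* was at 830, 579, 1029 and 1009 CPM in aged Ythdf2CTL mice 65, 99, 114 and 124 and at 491, 603, 587, 709 and 543 CPM in the Ythdf2CKO mice 78, 81, 94, 121 and 122. Ythdf2CTL 99, which is counted from 1 library, lay within the Ythdf2CKO mice, and the other 3 lay above them all. Its log2 fold change of -0.54 ± 0.18 (edgeR adjusted p 0.380) was within its error of that in young mice, with a difference of -0.084 ± 0.23. The difference between genotypes thus had the same sign and a like size in both ages, in different mice, without passing the main test in either. Without Ythdf2CKO 121 and Ythdf2CTL 124 it was -0.55 (adjusted p 0.266).

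*Tug1* was widely spread in aged Ythdf2CTL mice, at 390, 330, 112 and 69.6 CPM in mice 65, 99, 114 and 124. In aged Ythdf2CKO mice 78, 81, 94, 121 and 122 it was at 387, 484, 228, 297 and 324 CPM. Ythdf2CTL mice 65 and 99 thus lay among the Ythdf2CKO mice, and 114 and 124 below them all. The log2 fold change of 0.61 ± 0.42 had an edgeR adjusted p of 0.661 and lay between 0.31 and 1.01 when each mouse was left out, and the difference from young mice was -0.055 ± 0.49. The aged genotype difference was 0.36 without Ythdf2CKO 121 and Ythdf2CTL 124.

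*Snhg12* was at 14.03 to 20.3 CPM in aged Ythdf2CTL and 7.30 to 13.9 CPM in aged Ythdf2CKO mice. The mice did not overlap but came within the spread of single libraries, and the log2 fold change of -0.43 ± 0.38 (edgeR adjusted p 0.761) was -1.01 in libraries A alone and 0.029 in libraries B alone. *Malat1* and *Snhg12* were the members without overlap in aged mice, where this held for 3.48% of all genes. *Neat1* (-0.37 ± 0.38), *Snhg1* (-0.43 ± 0.33), *Snhg5* (-0.26 ± 0.26) and *Norad* (0.16 ± 0.27) overlapped between genotypes. Without Ythdf2CKO 121 and Ythdf2CTL 124 they were -0.089, -0.13, -0.051 and -0.17 in that order, and *Snhg12* was -0.30. Of these, *Neat1* was at 20.03 to 100.05 CPM in Ythdf2CTL and 25.7 to 58.6 CPM in Ythdf2CKO mice, and *Norad* at 34.6 to 74.7 and 45.6 to 83.3 CPM. *Snhg1* ran from 21.9 to 79.0 CPM in Ythdf2CTL but only from 29.5 to 42.1 CPM in Ythdf2CKO mice, and *Snhg5* from 36.3 to 114 and from 62.5 to 75.7 CPM.

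**Figure D3:**
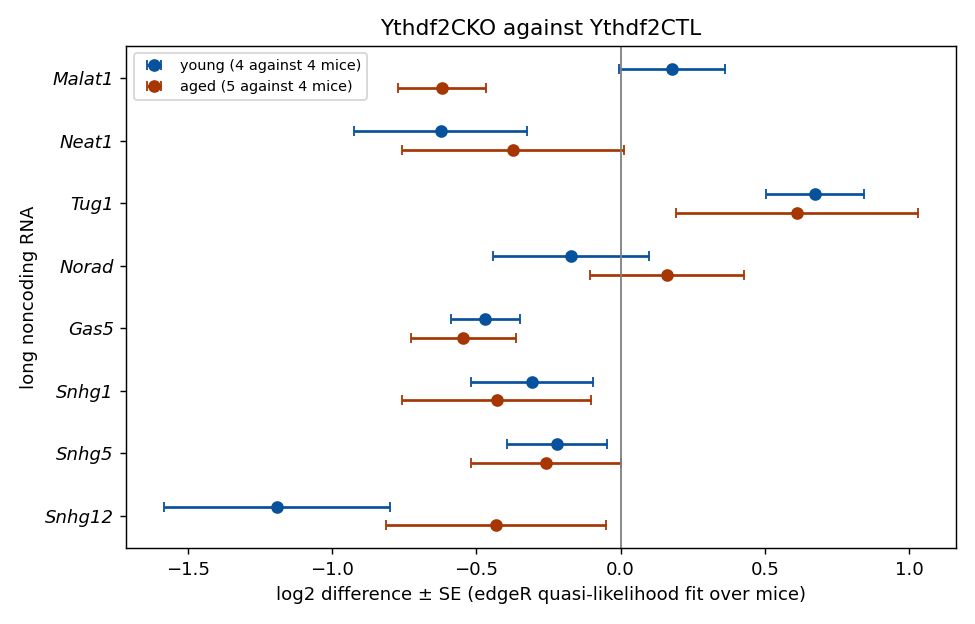
Log2 difference (± SE, edgeR quasi-likelihood fit over mice) of each long noncoding RNA between Ythdf2CKO and Ythdf2CTL, in young mice (blue) and aged mice (brown). *Gas5* lies at -0.47 and -0.54 and *Tug1* at 0.67 and 0.61, *Malat1* is at 0.18 in young and -0.62 in aged mice, and no value had an adjusted p below 0.05.

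A test of whether the genotype effect differed between ages called no member and no gene (0.0% of 12352) by the edgeR quasi-likelihood test, and DESeq2 also called 0, while the likelihood ratio test over mice called 4 genes. Without Ythdf2CKO 121 and Ythdf2CTL 124 the edgeR test called 15 genes (1 higher and 14 lower), and without Ythdf2CKO 121 alone 2, with no member among them. *Malat1* was the only member with an unadjusted p under 0.05, as were 255 genes with a higher and 333 with a lower effect in aged mice. The next in size was *Snhg12* with 0.75 ± 0.51 (edgeR adjusted p 0.999), from -1.19 in young to -0.43 in aged mice.

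Aged and young mice of the same genotype were then compared. Several members differed, *Norad* with higher and *Gas5*, *Malat1* and *Snhg5* with lower values in aged mice. In Ythdf2CTL mice 2 members passed the edgeR test, *Norad* and *Gas5*, where 14.8% of 12352 genes did. In Ythdf2CKO mice 4 members passed, *Norad*, *Malat1*, *Gas5* and *Snhg5*, where 16.6% of genes did. The median log2 difference over all genes was 0.11 in Ythdf2CTL and 0.070 in Ythdf2CKO mice, and 0.21 and 0.17 without TMM scaling, and the members' values are to be read against these shifts. The calls split into 828 higher and 997 lower in Ythdf2CTL (1110 and 764 without TMM) and into 891 higher and 1154 lower in Ythdf2CKO mice (1126 and 870 without TMM).

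*Norad* was at 27.7, 32.9, 25.6 and 23.7 CPM in young Ythdf2CTL mice 1 to 4 and at 74.7, 47.0, 50.7 and 34.6 CPM in aged Ythdf2CTL mice 65, 99, 114 and 124. In Ythdf2CKO mice it was at 29.1, 17.5, 29.7 and 21.2 CPM in the young mice 1 to 4, and at 45.6, 57.9, 47.5, 83.3 and 54.2 CPM in the aged mice 78, 81, 94, 121 and 122. Every aged mouse lay above every young mouse, and *Norad* rose by 0.92 ± 0.27 on the log2 scale in Ythdf2CTL (edgeR adjusted p 0.0287) and by 1.24 ± 0.26 in Ythdf2CKO mice (adjusted p 0.00339). The call in Ythdf2CTL was lost without young Ythdf2CTL 1, 3 or 4 or without aged Ythdf2CTL 65, with adjusted p from 0.0655 to 0.0947, and that in Ythdf2CKO held without any of the 9 mice.

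*Malat1* fell by 1.25 ± 0.18 on the log2 scale in Ythdf2CKO mice, from 6978, 9200, 14029 and 6746 CPM in the young mice to between 3738 and 4141 CPM in the aged mice. The edgeR adjusted p was 0.000188, and it was below 0.05 under each of 17 alternatives, in 9 of which a mouse was left out. In Ythdf2CTL mice the difference was -0.45 ± 0.19 with an adjusted p of 0.113, with young mice at 7483 to 8978 CPM and aged mice at 4575 to 7449 CPM. The age effects of both genotypes differ by the same -0.80 ± 0.26 given above, which did not pass adjustment. Of the 14 nuclear speckle proteins listed, 7 had higher and 7 lower values in aged Ythdf2CTL mice, with 1 called higher (*Srrm2*, 1.10 ± 0.37, adjusted p 0.0479) and 2 lower, and in Ythdf2CKO mice 0 were called higher and 4 lower, where 14.8% and 16.6% of all genes passed. *Srsf3* and *Srsf7*, which encode splicing factors, were lower in aged mice of both genotypes, by -0.81 ± 0.14 and -0.80 ± 0.16 in Ythdf2CTL and by -0.77 ± 0.13 and -0.76 ± 0.15 in Ythdf2CKO mice.

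*Gas5* fell by 0.58 ± 0.17 in Ythdf2CTL (edgeR adjusted p 0.0231) and by 0.67 ± 0.16 in Ythdf2CKO mice (adjusted p 0.00643). The 4 aged Ythdf2CTL mice (579 to 1029 CPM) lay below all young Ythdf2CTL mice, and the 5 aged Ythdf2CKO mice (491 to 709 CPM) below all young Ythdf2CKO mice. In Ythdf2CTL the call was lost without young Ythdf2CTL 1, 3 or 4 or aged Ythdf2CTL 99, with adjusted p from 0.0536 to 0.0619. *Snhg5* fell by 0.69 ± 0.23 in Ythdf2CKO mice (adjusted p 0.0408), from 96.3 to 122 CPM in young mice to 62.5 to 75.7 CPM in aged mice. That call was lost when any of 7 of the 9 mice was left out (adjusted p 0.0591 to 0.109) and without TMM scaling (0.0673). In Ythdf2CTL mice *Snhg5* had a difference of -0.65 ± 0.24 (adjusted p 0.0761), which passed without aged Ythdf2CTL 124 (-0.87, adjusted p 0.0181).

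The remaining members did not pass in either genotype. *Snhg12* had a difference of 0.74 ± 0.36 in Ythdf2CKO (edgeR adjusted p 0.168) and -0.0089 ± 0.37 in Ythdf2CTL mice. *Snhg1* (-0.24 ± 0.30 and -0.37 ± 0.28 in Ythdf2CTL and Ythdf2CKO), *Tug1* (0.44 ± 0.36 and 0.39 ± 0.34) and *Neat1* (0.12 ± 0.38 and 0.36 ± 0.37) lay within 2 SE of 0. Without aged Ythdf2CKO 121 and Ythdf2CTL 124, the age difference in Ythdf2CTL was -0.65 for *Snhg1* (adjusted p 0.0846), 0.74 for *Tug1* (0.0896), -0.32 for *Neat1* and -0.14 for *Snhg12*, and in Ythdf2CKO it was 0.22 for *Neat1*. Aged and young mice were without overlap for 3 members in Ythdf2CTL, *Norad*, *Gas5* and *Malat1*, and for these and *Snhg5*, 4 in all, in Ythdf2CKO, against 17.1% and 20.4% of all genes.

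**Figure D4:**
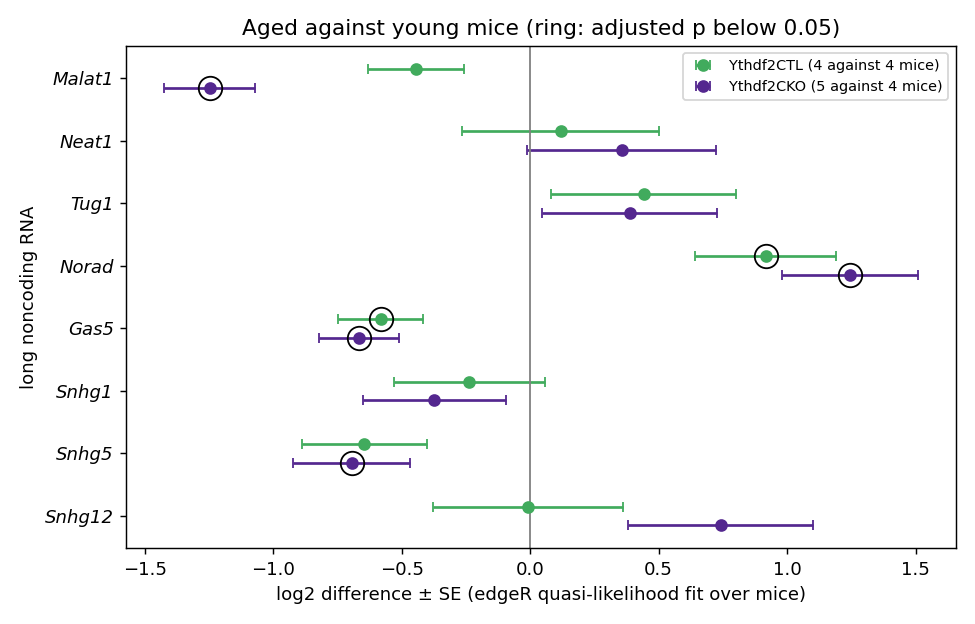
Log2 difference (± SE, edgeR quasi-likelihood fit over 17 mice) of each long noncoding RNA between aged and young mice, in Ythdf2CTL (green) and Ythdf2CKO (purple), with a ring where the adjusted p is below 0.05. *Norad* is ringed at 0.92 and 1.24 and *Gas5* at -0.58 and -0.67, and *Malat1* (-1.25) and *Snhg5* (-0.69) are ringed in Ythdf2CKO only.

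Across all genes the age difference moved with transcript length and base composition. The median log2 difference in Ythdf2CTL mice went from -0.24 in the quintile of genes with the lowest GC content to 0.50 in that with the highest, and in Ythdf2CKO mice from -0.36 to 0.51. By length it went from -0.30 in the shortest to 0.39 in the longest quintile in Ythdf2CTL mice, and in Ythdf2CKO mice from -0.27 through 0.23 in the next to longest to 0.12 in the longest. The genotype difference in aged mice also moved with length, with a median of -0.25 in the longest quintile, where *Malat1* falls, and *Malat1* differed from that median by -0.37. Among the genes of the age comparisons, all 8 members fall in the 2 quintiles of lowest GC, at 37.9% to 47.6%. Relative to the median of its GC quintile, the age difference was 0.94 and 1.34 for *Norad* in Ythdf2CTL and Ythdf2CKO, -0.34 and -0.30 for *Gas5*, -0.21 and -0.89 for *Malat1*, and -0.62 and -0.60 for *Snhg5*. Relative to the median of its length quintile it was 0.64 and 1.02 for *Norad*, -0.61 and -0.75 for *Gas5*, -0.83 and -1.37 for *Malat1*, and -0.35 and -0.43 for *Snhg5*. No fit with GC content or length as a term was made, and their part in these results was not tested.

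The wider lists give the setting. In young mice none of the other 10 snoRNA hosts with a row passed the edgeR test, and 7 of the 10 had a negative log2 fold change in Ythdf2CKO, with a median of -0.41. In aged mice 8 of 10 were negative, with a median of -0.31. In young mice 3 of the 10 had an unadjusted p under 0.05, as did 7.06% of all genes. *Snhg8* (-0.60 ± 0.20) and *Snhg3* (-0.47 ± 0.18) were lower. The thinly counted *Snhg18* was higher (2.56 ± 1.08, with at most 2.61 CPM in Ythdf2CTL and 2.77 to 6.01 CPM in Ythdf2CKO mice). In aged mice 2 of the 10 did, both lower, against 10.1% of all genes, and *Snhg4* had the lowest p (-0.90 ± 0.30). None of these passed adjustment. Between ages, 9 of 10 hosts had lower values in aged mice of each genotype, with medians of -0.45 and -0.46. In Ythdf2CTL 2 of the 10 passed, both lower, and in Ythdf2CKO 5, all lower, where 14.8% and 16.6% of all genes passed. *Snhg3* was among them in both, with -1.27 ± 0.25 in Ythdf2CTL and -1.21 ± 0.23 in Ythdf2CKO mice, and so was *Snhg9*, with -1.70 ± 0.37 and -1.28 ± 0.34. *Snhg3* went from 85.7 to 143 CPM in young to 24.8 to 72.9 CPM in aged Ythdf2CTL mice, and from 67.6 to 94.5 to 32.9 to 37.4 CPM in Ythdf2CKO mice.

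Of 17 TOP mRNAs other than those of ribosomal proteins, 14 in young and 16 in aged mice had a negative log2 fold change in Ythdf2CKO, with medians of -0.12 and -0.31 and none called. With age, 2 of the 17 rose and 3 fell in Ythdf2CTL (14.8% of all genes passed) and 1 rose and 4 fell in Ythdf2CKO mice (16.6%). Among them in Ythdf2CTL, *Eef2*, the elongation factor that moves the ribosome along, rose by 1.17 ± 0.23 and *Eif3e*, an initiation factor subunit, fell by 0.72 ± 0.16. None of the 18 nonsense-mediated decay factors, 14 snoRNP proteins, 16 paraspeckle proteins, 14 nuclear speckle proteins or 10 polycomb repressive complex 2 genes passed between genotypes in either age. With age in Ythdf2CTL mice, where 14.8% of all genes passed, 1 decay factor rose (*Upf1*, the helicase of the pathway, 1.62 ± 0.50) and 4 fell, *Magoh* by 1.10 ± 0.18. Of the snoRNP proteins 1 rose and 3 fell, *Nop10* by 0.85 ± 0.18, of the paraspeckle proteins 1 rose and 2 fell, and of the polycomb genes 0 rose and 3 fell. In Ythdf2CKO mice, where 16.6% of all genes passed, 3 decay factors rose and 5 fell, and 1 snoRNP protein rose and 2 fell. There 2 paraspeckle proteins rose and 2 fell, and 0 polycomb genes rose and 2 fell. Of other long noncoding RNAs 0 of 21 passed in Ythdf2CTL (4 at an unadjusted p under 0.05). In Ythdf2CKO mice 4 of 21 passed, all lower, against 16.6% of all genes, and among them *Dancr* fell by 1.26 ± 0.23.

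Libraries A and B of a mouse showed how closely 100 cells repeat a level. The median size of the log2 ratio between them over 16 mice was 0.21 for *Gas5*, 0.34 for *Malat1*, 0.41 for *Neat1*, 0.42 for *Snhg5*, 0.46 for *Snhg1*, 0.47 for *Tug1*, 0.50 for *Norad* and 0.65 for *Snhg12*. *Gas5* was thus the most repeatable, with a largest ratio of 1.48-fold. *Tug1* reached 3.57-fold in aged Ythdf2CTL 124 (115 CPM in A and 32.2 CPM in B), *Snhg12* 3.92-fold in aged Ythdf2CKO 78, and *Malat1* 2.32-fold in young Ythdf2CTL 4 (10970 and 4727 CPM). For *Tug1*, A was above B in 3 of 8 young and 8 of 8 aged mice, for *Norad* in 1 of 8 and 5 of 8, and for *Malat1* in 6 of 8 and 3 of 8. Aged Ythdf2CTL mice have 4 A and 3 B libraries, and the aged genotype difference of *Tug1* was 0.63 in libraries A alone and 0.87 in libraries B alone, neither called.

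**Figure D5:**
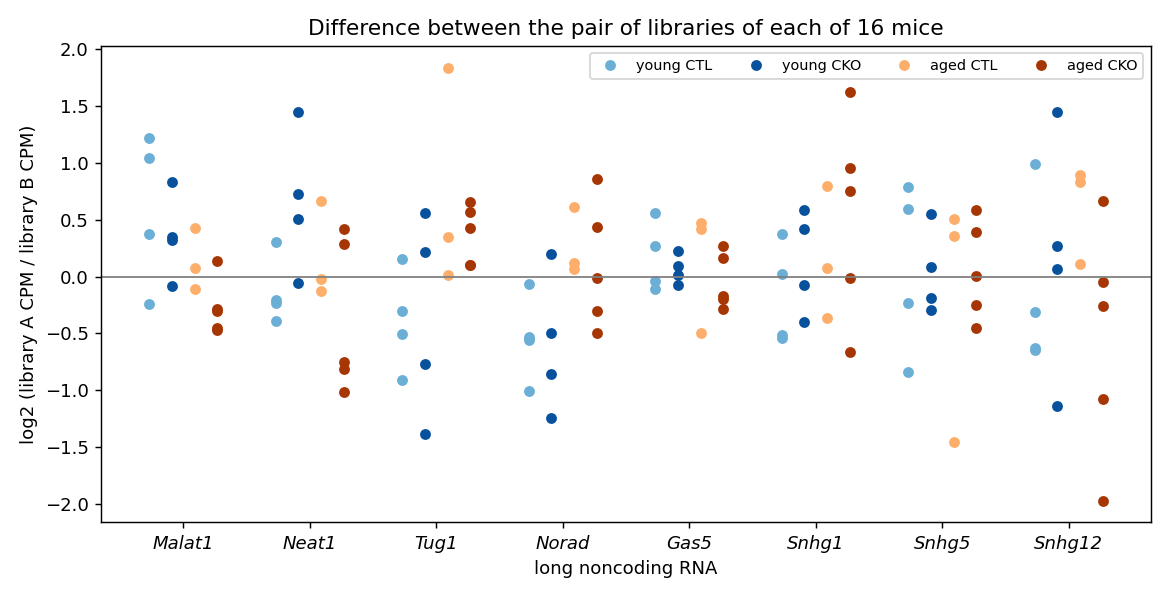
Log2 ratio of library A to library B (CPM) for each long noncoding RNA in the 16 mice with both libraries (points, colored by group), with 0 marking equal levels. *Gas5* has the narrowest spread, with a median size of 0.21, and *Snhg12* the widest, with 0.65.

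Whether members went together from mouse to mouse was examined within each age on deviations from the group mean of log2 CPM, for the 6 pairs of snoRNA hosts and for *Malat1* with *Neat1*, 14 relations in all. None passed adjustment over the 14 (lowest adjusted p 0.0629). *Snhg1* and *Gas5* had the lowest p, with Pearson r = 0.85 (exact permutation p 0.00449, adjusted 0.0629) and Spearman rho = 0.82 (p 0.0108, adjusted 0.108) in 9 aged mice, and r was 0.77 without the 2 mice farthest from the median of *Snhg1*. In 8 young mice the same pair had r = 0.66 (exact permutation p 0.0843) and rho = 0.83 (p 0.0154). *Snhg5* went with *Snhg1* (r = 0.84) and *Gas5* (r = 0.81) in aged mice, but without the 2 farthest mice these were 0.12 and 0.33, so that both rested on those mice. *Malat1* and *Neat1*, neighbors on chromosome 19, had r = 0.50 in young (exact permutation p 0.223) and 0.61 in aged mice (exact permutation p 0.0809). All values of a mouse share its depth and scaling. Over the 17 mice, the genes whose log2 CPM was most like that of *Tug1* among 12352 were *Kbtbd4* (Pearson r = 0.90), *Cyb5rl* (0.90) and *Gnb1* (0.89), given as a description.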

How the data were processed

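Libraries of 100 sorted HSCs were made by SMART-Seq2. Alignment by the authors was with HISAT2 on GRCm38, and gene counts were made with Rsubread. Raw counts, one whole number per gene and library, are what they deposited. The annotation behind them is not given in the sources used here. As the protocol has no molecular identifiers, floors of 3 counts cover counting error only.

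The A and B counts were summed per mouse, so that n is mice, and library B of aged Ythdf2CTL 99 was left out. Genes passed filterByExpr with a minimum count of 10 and a total of 15. After TMM scaling, edgeR 4.0.16 (R 4.3.3) gave quasi-likelihood p-values, which were adjusted over all genes by Benjamini-Hochberg, with calls at 0.05. Genotype was tested in separate fits for young and aged mice, and 1 fit over 17 mice gave the age effects and the difference between ages. SE values were obtained from the F statistic. CPM are TMM-scaled, and correlations used log2 CPM with a prior count of 2. The fits were tested on simulated data.

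Alternatives were DESeq2 1.42.0, limma 3.58.1, likelihood ratio tests (the test the study used), other scalings and filters, single library letters, covariates and each mouse left out. The text names all members, *Ythdf2*, any list gene called between genotypes and the 3 genes most like *Tug1*. Every other gene of the lists that is named, and the description by GC content and length, was chosen after its values were seen. The members and lists themselves were chosen with earlier results of these data known. Positions and transcripts came from GENCODE vM21 and start windows from RefSeq (GRCm38.p6). Values of 2 genes of the lists are not reported here.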

Additional observations from a re-analysis of the deposited data

Results flagged for a closer look

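In 36 groups of 4 or 5 mice (8 members and *Ythdf2* in 4 groups), the highest or lowest mouse lay apart from the rest by Dixon's criterion in 3, where chance gives about 1.8. *Neat1* was at 50.1 CPM in young Ythdf2CKO 3 with the next mouse at 29.98 CPM, and *Snhg5* at 75.7 CPM in aged Ythdf2CKO 122 with the next at 66.2 CPM. *Ythdf2* was at 188 CPM in the aged mouse labelled Ythdf2CKO 121, with the next Ythdf2CKO mouse at 87.8 CPM, and this is the gene whose floxed exon defines the groups. No member differed between the ages in its response to genotype by the edgeR interaction test.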

How the results depend on the processing

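Member calls between genotypes depended on the test and on the unit of replication. In young mice they numbered 0 by the quasi-likelihood test, 2 by DESeq2 and 1 by the likelihood ratio test over libraries. Limma voom over libraries, with mouse as a random effect, called 1. In aged mice the numbers were 0, 1, 2 and 0 in that order. The likelihood ratio test over libraries takes A and B of a mouse as separate samples, and over mice it called 0 members in either age. All other alternatives gave 0, with the replicate block on the young mouse number among them (value 0). Deviations from the group mean of same-numbered mice had correlations of -0.019 to 0.049. These were not set against differently numbered mice and cannot decide whether the numbers pair the mice. The block left 12 genes higher and 2 lower where 15 and 5 had been called. Member calls between ages in Ythdf2CTL numbered 2, and from 0 to 3 when a mouse was left out, and those in Ythdf2CKO were 4 or within 1.5 times of it throughout. *Ythdf2* in young mice lost its edgeR call (adjusted p 0.0406) without any of 7 of 8 mice (lowest 0.0768). The call was also lost in library A alone (0.573) or B alone (0.200), and with the Y-linked covariate (0.176). The replicate block (0.128) and 1 fit over all mice (0.804) lost it too, while it held under the other tests, scalings and filters. In aged mice *Ythdf2* gained a call (-1.06, adjusted p 0.0212) without mice 121 and 124. Those 2 mice were picked by their *Ythdf2* level, so that this gain follows from the choice.

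Directions turned only for members whose difference was within 2 SE of 0, and the cause was not tested. When each mouse was left out, the log2 genotype difference ranged from -0.097 to 0.30 for *Malat1* in young mice, and in aged mice from -0.68 to 0.037 for *Neat1* and from -0.0077 to 0.38 for *Norad*. The difference between ages ranged from -0.35 to 0.36 for *Tug1*, -0.11 to 0.68 for *Neat1*, -0.36 to 0.28 for *Snhg1*, -0.29 to 0.17 for *Snhg5* and -0.24 to 0.0076 for *Gas5*, and the age difference in Ythdf2CTL from -0.33 to 0.46 for *Neat1* and -0.17 to 0.19 for *Snhg12*. Without mice 121 and 124 the aged genotype difference of *Norad* was -0.17, the difference between ages 0.18 for *Snhg1* and 0.17 for *Snhg5*, and the age difference of *Neat1* in Ythdf2CTL -0.32. *Snhg12* turned to 0.029 in library B alone (aged genotype difference), to 0.078 without TMM and to 0.0066 at a minimum count of 50 (age difference in Ythdf2CTL), and *Tug1* to 0.028 with library B of Ythdf2CTL 99 added (difference between ages). Without the 2 farthest mice, r turned to -0.026 for *Malat1* with *Neat1* in young and to -0.33 and -0.031 for *Snhg12* with *Snhg1* and *Gas5* in aged mice. Depth limits *Snhg12* most, with as few as 27 counts in a mouse.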
